A study of Mus musculus with 2 samples.

Results

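The Gdf10/Fst cells are a minor kind of fibroblast-like mesenchymal progenitor in hindlimb muscle, and 371 of them were found among 14984 filtered cells of 2 scRNA-Seq libraries. They were chosen by their own measured UMI counts (a UMI marks 1 captured RNA molecule). A cell entered the mesenchymal gate with at least 1 UMI of Pdgfra, at least 5 UMIs of Dcn and at most 1 UMI in all of Pecam1, Cdh5, Ptprc and Tnmd, which mark endothelial, blood and tendon cells. The gate held 2416 cells. Within it, 3 sums were compared in each cell: Pi16, Sema3c, Cd248 and Dpp4; Cxcl14, Mme, Hsd11b1 and Ccl11; and Gdf10, Fst, Igfbp3 and Penk. Gdf10/Fst cells had at least 3 UMIs in the last sum, and that sum was larger than each of the others. The cells in which one of the other sums was largest are called Pi16/Sema3c cells and Cxcl14/Mme cells.

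Both libraries came from hindlimb muscle (quadriceps and gastrocnemius, by the methods) of 24-month-old female C57Bl/6J mice. Muscles were injected 3 times within a week. One group received all-trans retinoic acid together with the RXRα agonist CD3254 and the RARγ agonist BMS961 (ATRA+agonist). The other received the vehicle alone (DMSO vehicle). By the methods, both injections were made up in phosphate-buffered saline with DMSO. Cells of 2 mice were mixed in each library after a sort on propidium iodide, so there is 1 library per group and no replicate. The mice of a library cannot be told apart, and no test, p-value or SE is given. All intervals are 95% intervals of counting error only and leave out the difference between mice. Those of UMI counts also leave out the difference between cells, and are too narrow where few cells carry a gene. The comparison of the libraries asks how these cells differed after retinoid injection of old muscle.

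Mesenchymal progenitors of muscle, also known as fibro-adipogenic progenitors, lie between the fibers, build the matrix and can turn into fibroblasts or fat cells. They send signals to the muscle stem cell. The 4 genes that named these cells encode secreted proteins: Gdf10 is a ligand of the TGF-β superfamily, Fst (follistatin) binds and blocks activins and myostatin, Igfbp3 binds insulin-like growth factors, and Penk encodes the precursor of the enkephalin opioid peptides. Retinoic acid binds nuclear receptors (RARs paired with RXRs) that sit on DNA at paired half-sites, and the Cyp26 enzymes break it down.

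In the build GRCm38, Gdf10 lies on chromosome 14 (33923587 to 33937983, plus strand), Fst on chromosome 13 (114452290 to 114458951, minus strand), Igfbp3 on chromosome 11 (7206086 to 7213923, minus strand) and Penk on chromosome 4 (4133531 to 4138819, minus strand). A 3′ kit was used, so that UMIs come mostly from the ends of transcripts, and levels are compared between cells and not between genes.

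The ATRA+agonist library held 141 Gdf10/Fst cells and the DMSO vehicle library held 230. They carried 1257867 and 1615141 UMIs, which set the precision of every level. The median Gdf10/Fst cell had 8980 UMIs after ATRA+agonist and 6667.5 after DMSO vehicle, so that cells of the treated library were deeper. No barcode of a Gdf10/Fst cell was among the 43 barcodes that occur in both libraries. Over whole libraries, 10444 barcodes with 65197625 UMIs were deposited for ATRA+agonist and 17394 barcodes with 109343486 UMIs for DMSO vehicle, of which 7467 and 7517 passed the filters on genes, mitochondrial and hemoglobin UMIs.

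Gdf10/Fst cells took a smaller share of the mesenchymal gate after ATRA+agonist. They were 12.8% of 1098 gate cells (95% exact binomial interval 10.9 to 14.97), against 17.5% of 1318 gate cells after DMSO vehicle (15.4 to 19.6). The ratio of the shares was 0.736 (0.606 to 0.893). Of all filtered cells they made up 1.89% and 3.06%, a ratio of 0.617 (0.502 to 0.759). Pi16/Sema3c cells went the other way, with 285 cells (26.0% of the gate) after ATRA+agonist and 223 cells (16.9%) after DMSO vehicle. Cxcl14/Mme cells were 57.2% and 58.7% of the gate, shares with overlapping intervals. Of all filtered cells, however, Cxcl14/Mme cells were also a smaller share after ATRA+agonist. They made up 8.41% and 10.3%, a ratio of 0.817 (0.739 to 0.903). Pi16/Sema3c cells made up 3.82% and 2.97% of filtered cells, a ratio of 1.29 (1.08 to 1.53). The marker genes of the rule differed in level between the libraries, so a share of cells and the level of its markers cannot be told apart here.

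**Figure D1:**
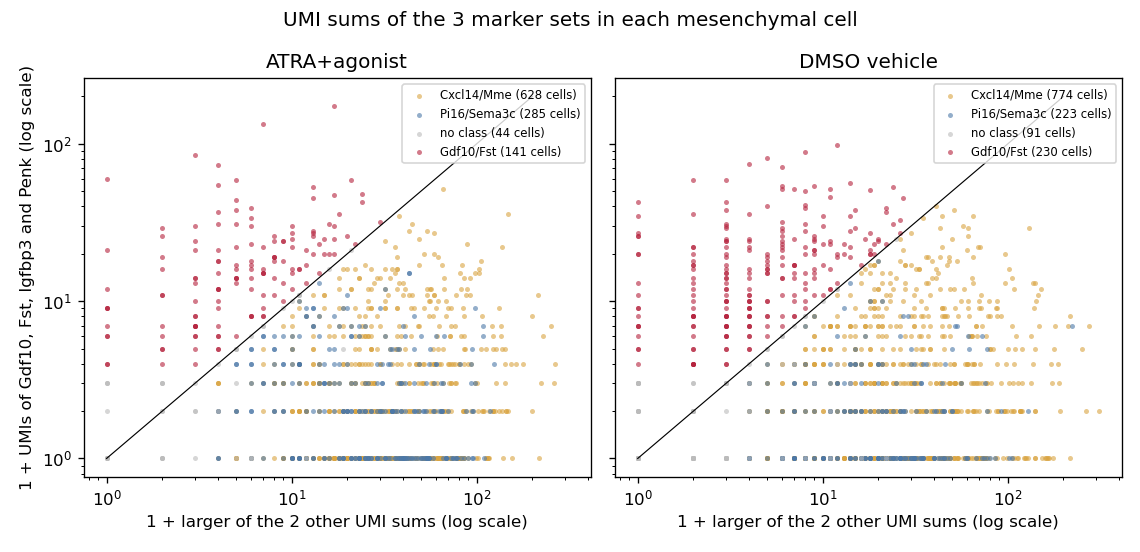
Each point is 1 cell of the mesenchymal gate; the vertical axis is 1 plus its UMIs of Gdf10, Fst, Igfbp3 and Penk, the horizontal axis 1 plus the larger of its 2 other sums, both on log scales, with the 2 libraries side by side. The 141 and 230 Gdf10/Fst cells (red) lie above the line of equal sums, and many Cxcl14/Mme cells also hold UMIs of these markers.

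The sum that defines the cells ran from 3 to 173 UMIs after ATRA+agonist and from 3 to 98 after DMSO vehicle, with a median of 15 in both libraries. The border was not sharp. Another 324 gate cells after ATRA+agonist and 346 after DMSO vehicle also held 3 or more UMIs of the 4 markers but more of another set, and 14 and 12 cells were tied. The 4 and 8 cells just inside the limit held 3 UMIs, and the 6 and 9 cells just outside it held 2. Cdh11, a cadherin that the rule did not use, was at 483 CPM (UMIs of a gene per 1000000 UMIs of those cells) in the DMSO vehicle cells just inside and 317 CPM in those just outside, and after ATRA+agonist it was at 0 and 167 CPM, from 10454 and 29925 UMIs in all.

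Most Gdf10/Fst cells held several of the 4 markers. UMIs of 3 or 4 of them were found in 54 and 40 of the 141 ATRA+agonist cells, and in 90 and 62 of the 230 DMSO vehicle cells. A UMI of Gdf10 was present in 65.2% and 57.0% of cells, of Fst in 88.7% and 74.3%, of Igfbp3 in 59.6% and 79.6%, and of Penk in 75.9% and 74.8%, with ATRA+agonist given first. In cells with 2 or more UMIs of the leukocyte gene Ptprc, the shares were between 0.0662% and 1.91% at median depths of 7812 and 8569 UMIs. They were highest for Penk, at 1.39% and 1.91%. With each cell thinned to 2000 UMIs (2 and 3 shallower cells left out), the shares with Fst were 66.9% and 54.6% and those with Igfbp3 39.6% and 62.1%. Gdf10 was then at 32.4% and 35.7%, and Penk at 41.0% and 51.1%.

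Each Gdf10/Fst cell was also described by its leading marker, the one of the 4 rule genes with the most UMIs. The rule used the same UMIs and cells of a library are not replicates, so the shares are a description and their intervals cover counting error only. Fst had the most UMIs in 74 of 141 cells after ATRA+agonist (52.5%, interval 43.9 to 60.9) and in 60 of 230 cells after DMSO vehicle (26.1%, 20.5 to 32.3), a ratio of 2.01. Igfbp3 led in 22 cells (15.6%, 10.0 to 22.7) and 96 cells (41.7%, 35.3 to 48.4), a ratio of 0.374. Gdf10 led in 20 and 26 cells and Penk in 16 and 34 cells. In 9 and 14 cells the leading place was tied. With cells thinned to 2000 UMIs the ratio for Fst-led cells was 2.30 and that for Igfbp3-led cells 0.482.

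**Figure D2:**
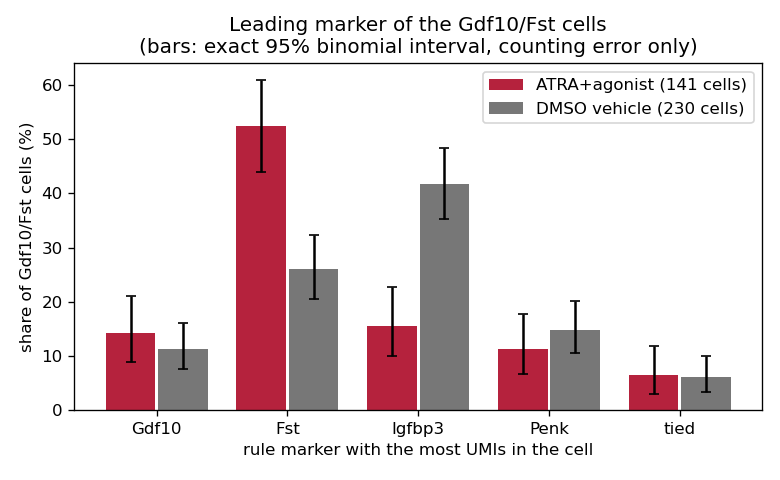
Bars give the share of Gdf10/Fst cells (%) in which each rule marker had the most UMIs, for 141 ATRA+agonist and 230 DMSO vehicle cells, with exact 95% binomial intervals. Fst leads 52.5% of the treated and 26.1% of the vehicle cells, and Igfbp3 leads 15.6% and 41.7%.

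Cells held between 0 and 168 UMIs of Igfbp3 after ATRA+agonist (median 1) and between 0 and 50 after DMSO vehicle (median 4). For Fst the ranges were 0 to 51 (median 6) and 0 to 45 (median 3), so the cells of the libraries overlapped widely. Over all cells, Igfbp3 was at 801 CPM after ATRA+agonist (1008 UMIs) and 1207 CPM after DMSO vehicle (1949 UMIs), a log2 ratio of -0.59 (-0.70 to -0.48). One cell of the treated library, the deepest, held 168 of the 1008 UMIs, and without the top cell of each library the log2 ratio was -0.82. With the 4 leading-marker groups weighted equally it turned to 0.26. Penk was lower as well, at 270 against 520 CPM, a log2 ratio of -0.94 (-1.13 to -0.76), with 93 of its 840 DMSO vehicle UMIs in 1 cell. Fst was at 944 and 676 CPM, a log2 ratio of 0.48 (0.36 to 0.60) that stayed under 1.5-fold. Gdf10 was at 293 and 297 CPM, a log2 ratio of -0.02 (-0.22 to 0.18). These genes chose the cells in each library, so their levels are a description of the rule.

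Of 18 general genes of muscle mesenchymal progenitors, 17 reached 50 UMIs and Tcf21 had no UMI. The list summed to 38829 and 35038 CPM, against 7103 CPM in cells outside the gate, but the sum includes Pdgfra and Dcn, which the gate required, so this difference partly restates the choice of cells. Among Gdf10/Fst cells, Pdgfra, the receptor used to sort such cells, was at 797 and 708 CPM and Dcn, the matrix proteoglycan decorin, at 13498 and 12835 CPM. Cd34 was lower than in the other kinds, at 329 and 263 CPM against 1063 and 871 CPM in Pi16/Sema3c cells and 561 and 409 CPM in Cxcl14/Mme cells.

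Many genes outside the rule also set the Gdf10/Fst cells apart. Of 10843 genes with 100 UMIs over the 3 kinds, 88 (0.812%) were at least 2-fold higher than in each of the other kinds in both libraries, with 5 CPM added to each level, and 40 (0.369%) were at least 2-fold lower in the same way. All 4 rule markers are among the higher genes by construction. Values below are given as ATRA+agonist and then DMSO vehicle.

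Clu (chromosome 14, 65968483 to 65981547), the secreted chaperone clusterin, had the largest difference among genes outside the rule, at 193 and 201 CPM in Gdf10/Fst cells, 18.6 and 18.1 CPM in Pi16/Sema3c cells and 15.6 and 21.9 CPM in Cxcl14/Mme cells. Cdh11, the mesenchymal cadherin, was at 274 and 239 CPM, against 13.2 and 15.7 CPM and 32.9 and 37.1 CPM. Piezo2, a mechanically gated ion channel, was at 223 and 266 CPM against at most 56.7 CPM in the other kinds. The transcription factor Klf5 was at 104 and 111 CPM against at most 25.1 CPM. Comp, a cartilage and tendon matrix protein, was at 227 and 296 CPM against at most 49.9 CPM. Emb, an adhesion protein, and Gabra3, a subunit of a GABA receptor, were at 159 and 207 CPM and at 46.9 and 68.7 CPM. In each of these 7 genes the Gdf10/Fst level was above both other kinds in both libraries, as the rule that named them requires. Not every cell carried them. Of the 141 and 230 cells, Clu had a UMI in 53 and 94, Cdh11 in 82 and 126 and Piezo2 in 59 and 114. Klf5 was found in 57 and 88 cells, Comp in 43 and 81, Emb in 46 and 85 and Gabra3 in 18 and 51. One treated cell held 69 of the 285 Comp UMIs, and another 19 of the 59 Gabra3 UMIs.

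Pappa2, Ecrg4 and Zfp804b complete the 10 leading genes and also rested on few cells. Pappa2, a protease that cleaves IGF-binding proteins, was at 33.4 and 72.4 CPM against at most 3.47 CPM elsewhere in the gate. Its UMIs came from 11 and 17 cells. Ecrg4 was at 81.9 and 33.4 CPM, from 25 and 20 cells, against at most 7.44 CPM. Zfp804b was at 77.9 and 19.8 CPM from 9 and 5 cells and had no UMI in Pi16/Sema3c cells, which allows up to 1.01 and 1.43 CPM. With doublets removed, its smallest log2 difference from the other kinds went from 1.92 to 0.81, under 2-fold.

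The genes at lower levels in Gdf10/Fst cells were led by Bmp6, a bone morphogenetic protein, at 2.38 and 1.86 CPM (3 UMIs in each library) against 114 and 95.7 CPM in Pi16/Sema3c cells and 37.7 and 35.7 CPM in Cxcl14/Mme cells. Ret, a receptor for neurotrophic factors of the GDNF family, was at 6.36 and 3.71 CPM against at least 32.7 CPM. Aldh1a2, which makes retinoic acid from retinaldehyde, was at 7.15 and 8.67 CPM against at least 44.97 CPM. Pla1a, a phospholipase, was at 13.51 and 10.5 CPM against at least 73.8 CPM, and the protease Pcsk6 was at 66.8 and 61.9 CPM against at least 258 CPM. Tek, the angiopoietin receptor, was at 27.03 and 13.6 CPM against at least 76.1 CPM. Oaf, Lamb1, Anxa3 and Ltbp1 were the other 4, with Gdf10/Fst levels between 34.1 and 66.2 CPM. Ltbp1 tethers latent TGF-β in the matrix and Lamb1 is a laminin chain of basement membranes.

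**Figure D3:**
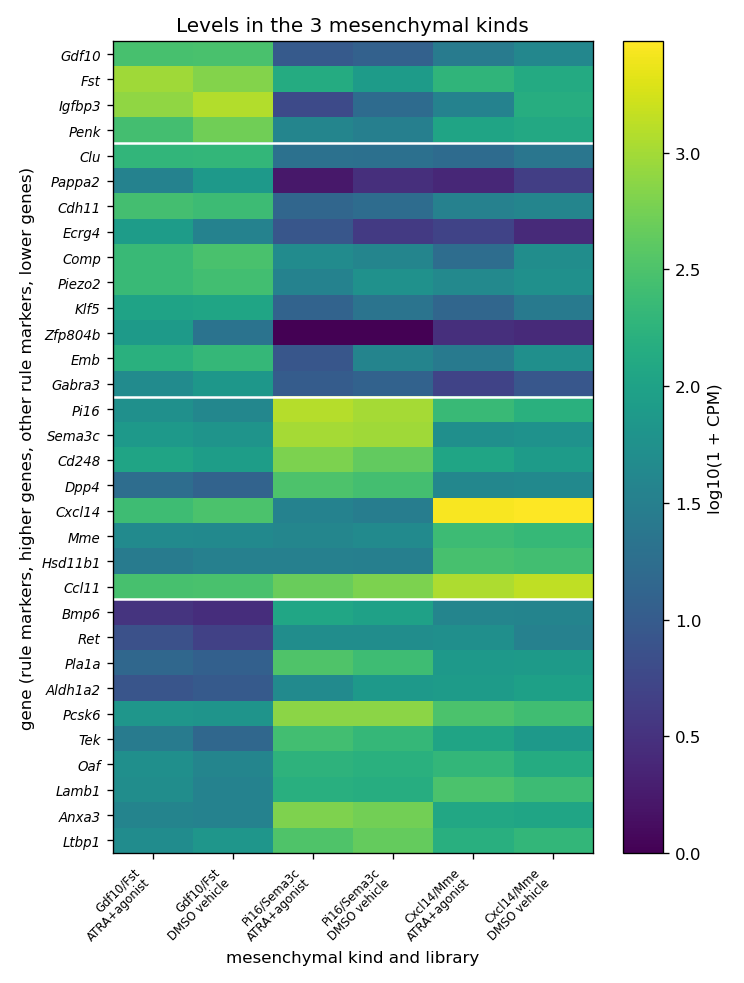
Rows are the 12 rule markers and the 10 higher and 10 lower genes named above, columns the 3 mesenchymal kinds in each library, and color is log10 of 1 plus CPM. The Gdf10/Fst columns are brightest for the upper 14 genes and darker than both other kinds for the lowest block, from Bmp6 to Ltbp1.

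The TGF-β lists are given beside 0.812% of all genes past 2-fold higher in Gdf10/Fst cells than in both other kinds and 0.369% lower. Of 14 TGF-β superfamily ligands with enough UMIs, Gdf10, a rule marker that is higher by construction, was past 2-fold higher in Gdf10/Fst cells. Bmp2, Bmp6, Inhba and Inhbb were past 2-fold lower. Inhba and Inhbb are the activin chains that Fst binds. Inhba was at 9.54 and 26.0 CPM against at least 34.1 CPM elsewhere, and Bmp2 at 29.4 and 33.4 CPM against at least 75.7 CPM. Among 14 secreted inhibitors, Fst, also a rule marker, was higher and Ltbp1 lower. Among 14 receptors, the activin receptor Acvr2a was higher, at 463 and 363 CPM against at most 221 CPM. Id2 and Id4, targets of BMP signaling, were higher among 13 Smad target genes, Id2 at 196 and 116 CPM against at most 53.7 CPM.

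Of 10 complement genes, 4 were past 2-fold higher than in both other kinds, beside 0.812% of all genes, and none was lower. C4b, a component of the classical pathway, was at 177 and 370 CPM against 72.0 and 148 CPM in Pi16/Sema3c cells and 69.3 and 154 CPM in Cxcl14/Mme cells. C2, C7 and Masp1 were the other 3. Of 16 Wnt pathway genes, 4 were higher, beside the same 0.812%: the antagonist Dkk2 at 446 and 342 CPM against at most 104 CPM, Dkk3, Sfrp2 and the agonist Rspo3. Cpe, which processes peptide precursors such as that of enkephalin, was at 87.4 and 83.6 CPM against at most 21.3 CPM. Of 20 growth factors, Fgf7 and Ptn were higher, and of 40 matrix glycoproteins Comp and Fbln1 were higher and Fbn1, Lamb1, Lamc1 and Vcan lower. These counts and those that follow stand beside 0.812% of all genes higher and 0.369% lower. Past 2-fold were also Mmp3 of 25 matrix proteases and Col8a2 of 25 collagen chains, both higher, and the chemokine receptor Ackr3, lower. No gene of nuclear-encoded oxidative phosphorylation (74 measured) was past 2-fold in either direction.

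The cells led by different rule markers differed in other genes as well. These groups hold as few as 16 cells, and the genes were ranked on the same cells, so the values are a description. Gdf10-led cells had more C7, a late complement component, at 434 CPM against 52.0 CPM in the other Gdf10/Fst cells after ATRA+agonist and 194 against 34.7 CPM after DMSO vehicle. One Gdf10-led cell held 51 of the 127 C7 UMIs of the treated library. F3, tissue factor, was at 825 and 905 CPM in them against 278 and 242 CPM in the others, and Tspan11, Pdgfrl and Mfap4 followed. In Fst-led cells Rassf2, the leading gene, was at 61.7 and 61.2 CPM against 23.6 and 23.5 CPM, and Brwd3, Ttc14, Lvrn and Pde8a came after it.

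In Igfbp3-led cells Kcnip4, a potassium channel partner, was at 83.0 and 115 CPM against 0.972 and 1.08 CPM in the other Gdf10/Fst cells, though its UMIs came from 3 and 7 cells, and 59 of the 80 after DMSO vehicle from 1 cell. Pappa2 was at 135 and 149 CPM against 10.7 and 16.1 CPM, with 59 of its 117 DMSO vehicle UMIs in that same cell. Sfrp2 was at 376 and 102 CPM against 36.0 and 28.0 CPM, with 48 of its 123 treated UMIs in 1 Igfbp3-led cell. Foxp2 and Mdga2 were the other genes. Penk-led cells had more Thbs4, a thrombospondin of tendon and muscle, at 768 and 315 CPM against 47.1 and 99.0 CPM. One cell held 79 of the 154 Thbs4 UMIs of the treated library. Sugct, Nnmt, Rasl11a and Rian were the other 4 genes.

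The gate allowed at most 1 UMI per cell over Pecam1, Cdh5, Ptprc and Tnmd together, so the low values of these genes were set by the choice of cells. The other markers below were not used by the gate, but the choice of cells can lower them too. Of 11 immune markers, Ptprc, Laptm5 and Cd3e had no UMI and the list summed to 15.9 and 13.6 CPM, against 8108 CPM outside the gate. Of 9 muscle stem cell markers, Pax7, Myf5, Calcr and Chrdl2 had no UMI and the sum was 100.2 and 110 CPM, most of it Vcam1. Of 11 endothelial markers none was at 0, and the sum was 129 and 108 CPM against 7438 CPM outside the gate. Tnmd and Scx, which define tendon cells, had 3 and 3 UMIs and 2 and 2 UMIs, whereas Comp, listed with them, was past 2-fold higher than in both other kinds. Thbs4, also on that list, was not past 2-fold, and its 154 and 212 UMIs came from 15 and 27 cells. The 9 tendon markers summed to 415 and 502 CPM, against 1173 CPM outside the gate. Of 8 Schwann markers none was at 0 over both libraries; the sum was 524 and 510.2 CPM, and most of it came from Scn7a and Pmp22. The 8 adipocyte markers summed to 7.15 and 4.33 CPM, with Retn and Lep at 0.

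Some of these markers moved with the library. All 4 hemoglobin genes that reached 50 UMIs were lower after ATRA+agonist, and the 5 erythroid markers summed to 247 and 921 CPM. The cell filter limits Hbb UMIs, so these levels were capped by the choice of cells. All 4 were also lower in Pi16/Sema3c and Cxcl14/Mme cells, with median log2 ratios of -1.77 and -1.74. Outside the gate the median share of Hbb UMIs per cell was 0.0198% after ATRA+agonist and 0.0712% after DMSO vehicle. The 10 muscle fiber markers went the other way, with 209 and 40.2 CPM, and 84 of the 95 Acta1 UMIs of the treated library were in 1 cell. The 9 perineurial markers summed to 50.9 and 108 CPM, against 194 CPM outside the gate. The 9 pericyte and smooth muscle markers summed to 83.5 and 173 CPM, because 126 of the 129 Acta2 UMIs after DMSO vehicle lay in 1 cell. That cell also held 135 of 147 Tagln UMIs, 54 of 76 Myl9 UMIs and 44 of 177 Mustn1 UMIs. The part of these cells and of free RNA in the results below was not tested, except where a value without the top cell is given.

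Between the libraries, 7133 genes had at least 50 UMIs in Gdf10/Fst cells. Of these, 381 (5.34%) were at least 1.5-fold higher after ATRA+agonist and 447 (6.27%) at least 1.5-fold lower, with a median log2 ratio of 0.01. The balance turned to 558 higher and 358 lower genes without the hemoglobin filter, and to 346 and 274 of 3792 in Fst-led cells alone. With 1 library per group, these counts hold sampling noise and the difference between the mice as well as that of the injections.

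The 10 genes furthest lower after ATRA+agonist included the chemokines Cxcl13 and Ccl7. Cxcl13, a B cell chemokine, had 24 UMIs (19.1 CPM) after ATRA+agonist and 302 UMIs (187 CPM) after DMSO vehicle, a log2 ratio of -3.29 (-3.96 to -2.69). Its UMIs came from 4 and 15 cells, 21 of the 24 treated ones from 1 cell, and the log2 ratio was -5.58 without the top cells. Ccl7, a monocyte chemokine, was at 25.4 and 116 CPM, a log2 ratio of -2.19 (-2.78 to -1.64), from 17 and 44 cells. Il33, an alarmin that acts on regulatory T cells and innate lymphoid cells, was at 48.5 and 134 CPM, a log2 ratio of -1.46 (-1.90 to -1.05). Over the list of cytokines and chemokines, 5 of 17 measured genes were past 1.5-fold lower (also Ccl2 and Cxcl10), beside 6.27% of all genes, 1 (Cxcl16, with an interval that includes 0) was higher, and the median log2 ratio was -0.26. In Pi16/Sema3c cells Cxcl13, Ccl7 and Il33 had log2 ratios of -0.69, -0.36 and 0.04, and in Cxcl14/Mme cells of -1.54, -1.59 and -0.25; these differences between kinds were not tested.

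Fkbp5 (chromosome 17, 28399094 to 28517527), a co-chaperone of the glucocorticoid receptor that glucocorticoids induce, was at 95.4 CPM (120 UMIs in 65 cells) after ATRA+agonist and 329 CPM (531 UMIs in 175 cells) after DMSO vehicle. Its log2 ratio was -1.78 (-2.08 to -1.50), and it was spread over the cells, with at most 18 UMIs in any one. Of 17 measured genes of a glucocorticoid-induced list that had served for these data before, 10 were past 1.5-fold lower, beside 6.27% of all genes, and none higher, with a median log2 ratio of -0.64 beside 0.01 over all genes. Zbtb16 was at 114 and 271 CPM, Tsc22d3 at 118 and 199 CPM, Cebpd at 551 and 1018 CPM, and the metallothionein Mt1 at 816 and 1517 CPM. Errfi1, Mt2, Cdkn1a, Ddit4 and Per1 were the other 5, with log2 ratios between -0.83 and -0.63, and the interval for Per1 included 0. In Pi16/Sema3c cells 4 of 17 genes were past 1.5-fold lower, beside 4.08% of all genes there, and in Cxcl14/Mme cells 10 of 18, beside 5.67%.

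Tex14, Mustn1, Kcnip4, Gm26885 and Lsmem1 were the other genes furthest lower. Tex14 was at 25.4 and 102 CPM, a log2 ratio of -1.997 (-2.59 to -1.44), from 20 and 72 cells. Mustn1 was at 31.8 and 110 CPM and its log2 ratio went from -1.78 to -1.49 without the top cells. Kcnip4, carried by few cells as described above, had a log2 ratio of -1.64 that was -1.22 without the top cells. Gm26885 and Lsmem1 were lower in all 3 kinds, with log2 ratios of -1.36 and -1.35 in Gdf10/Fst cells.

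The injected compounds act on RARs and RXRs, so the retinoid genes are given with their promoters. Windows of 250 bases before the RefSeq start were searched, and 3 genes are shown, because Cyp26b1 was the retinoid gene past 1.5-fold with the most UMIs, and Rarb and Cyp26a1 are known targets of RARs. A paired site was searched as 2 half-sites of AGGTCA or AGTTCA or GGGTCA or GGTTCA in the same orientation with 5 bases between them, on both strands. Capitals mark a match, sequences are from RefSeq on GRCm38.p6, and each runs 5′ to 3′ on the strand of the gene. In GENCODE M21 some transcripts of these genes start further upstream, so that 98 bases of the Cyp26b1 window, 10 of the Cyp26a1 window and all 250 of the Rarb window lie in exons. Bases in those exons are not printed, except that Rarb is shown by its match with 6 bases on each side.
Rarb (chr14:16575507-16575535, minus strand): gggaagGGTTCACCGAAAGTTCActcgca
Cyp26a1 (chr19:37697558-37697797, plus strand): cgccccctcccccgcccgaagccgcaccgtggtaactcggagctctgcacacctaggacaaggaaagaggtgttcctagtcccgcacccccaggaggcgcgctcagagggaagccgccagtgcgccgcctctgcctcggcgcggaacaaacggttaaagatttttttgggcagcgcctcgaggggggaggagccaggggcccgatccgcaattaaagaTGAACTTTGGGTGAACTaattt
Cyp26b1 (chr6:84593909-84594060, minus strand): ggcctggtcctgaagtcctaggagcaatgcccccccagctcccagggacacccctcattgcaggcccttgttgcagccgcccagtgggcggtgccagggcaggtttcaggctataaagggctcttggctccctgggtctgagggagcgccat

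The match began 53 bases before the RefSeq start of Rarb and 32 bases before that of Cyp26a1, where it reads on the other strand. No match lay in the Cyp26b1 window. Of the 26 listed retinoid genes 20 had a promoter in the table, and 2 of their 36 windows held a match (Rarb and Cyp26a1), beside 29 of all 32851 windows (0.0883%). The list includes known retinoid targets by choice, so its share of matches says nothing about these libraries. A match describes letters and not binding.

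Cyp26b1 (chromosome 6, 84571414 to 84593908), which breaks down retinoic acid, was lower after ATRA+agonist. It had 91 UMIs in 38 cells after ATRA+agonist (72.3 CPM, interval 58.2 to 88.8) and 372 UMIs in 95 cells after DMSO vehicle (230 CPM, 208 to 255), a log2 ratio of -1.67 (-2.02 to -1.34). It was lower in each leading-marker group, with log2 ratios of -1.10 in Gdf10-led, -1.52 in Fst-led, -3.85 in Igfbp3-led and -0.63 in Penk-led cells. In Pi16/Sema3c cells Cyp26b1 was at 11.2 and 25.7 CPM and in Cxcl14/Mme cells at 58.3 and 82.9 CPM. Rarb, the receptor gene with a match, had 4 and 35 UMIs, under the minimum of 50 for both libraries together, and a log2 ratio of -2.77 (-4.72 to -1.28). Cyp26a1 had no UMI in either library, which allows up to 2.38 and 1.86 CPM.

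Of the 26 retinoid genes, 10 reached 50 UMIs. Of these, 2 were past 1.5-fold lower, beside 6.27% of all genes, and 1 higher, beside 5.34%. Cyp26b1 and Rdh10, which oxidizes retinol (16 and 50 UMIs, log2 ratio -1.28, -2.19 to -0.45), were past 1.5-fold lower. In Fst-led cells alone the log2 ratio of Rdh10 was 0.52. Rara was past it higher, with 50 and 40 UMIs and a log2 ratio of 0.68 (0.05 to 1.32). Rarg, the receptor that BMS961 targets, was at 58.0 and 50.8 CPM (0.19, -0.28 to 0.67). Rxra, the target of CD3254, had 15 and 34 UMIs, under the minimum of 50. Dhrs3, which returns retinaldehyde to retinol, was at 103 and 133 CPM, under 1.5-fold. Stra6, the cell-surface retinol receptor, had 1 UMI in each library. The median log2 ratio of the 10 genes was -0.24. Of 19 retinoid genes measured across the kinds, Dhrs3 was past 2-fold higher in Gdf10/Fst cells than in both other kinds, beside 0.812% of all genes. Aldh1a2 and Ret were past 2-fold lower, beside 0.369%.

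Several abundant matrix genes were higher after ATRA+agonist. Col3a1 was at 1854 CPM (2332 UMIs in 133 cells) against 809 CPM (1307 UMIs in 173 cells), a log2 ratio of 1.20 (1.10 to 1.29). Col1a1 was at 1040 and 484 CPM (1.10, 0.98 to 1.23) and Col1a2 at 1588 and 901 CPM (0.82, 0.72 to 0.92). These chains form the fibrillar collagens I and III. The deepest cell held 292 of the Col3a1 and 257 of the Col1a1 UMIs of the treated library, and the log2 ratios were 1.14 and 0.88 without the top cells. With doublets removed they were 0.80 and 0.69.

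Of 21 collagen chains measured, 8 were past 1.5-fold higher (also Col5a3, Col15a1, Col5a1, Col4a5 and Col27a1), beside 5.34% of all genes, and Col8a1 was lower, with a median log2 ratio of 0.41. The same list had a median of 0.41 in Pi16/Sema3c cells (6 of 20 higher, beside 5.44% of all genes) and of 0.32 in Cxcl14/Mme cells (7 of 24 higher, beside 3.71%). Among 39 matrix glycoproteins 6 were higher, among them Sparc, which binds collagen, at 1126 and 674 CPM and Lum, the proteoglycan lumican, at 1130 and 655 CPM. Thbs1, an activator of TGF-β, was lower, at 46.1 and 149 CPM (log2 ratio -1.69, -2.13 to -1.28), and so was Fmod. Of 23 matrix proteases, inhibitors and cross-linkers, 5 were higher, including Loxl2 and Htra1, and Lox and Adamts9 were lower. Over all genes in Gdf10/Fst cells, 5.34% were higher and 6.27% lower.

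**Figure D4:**
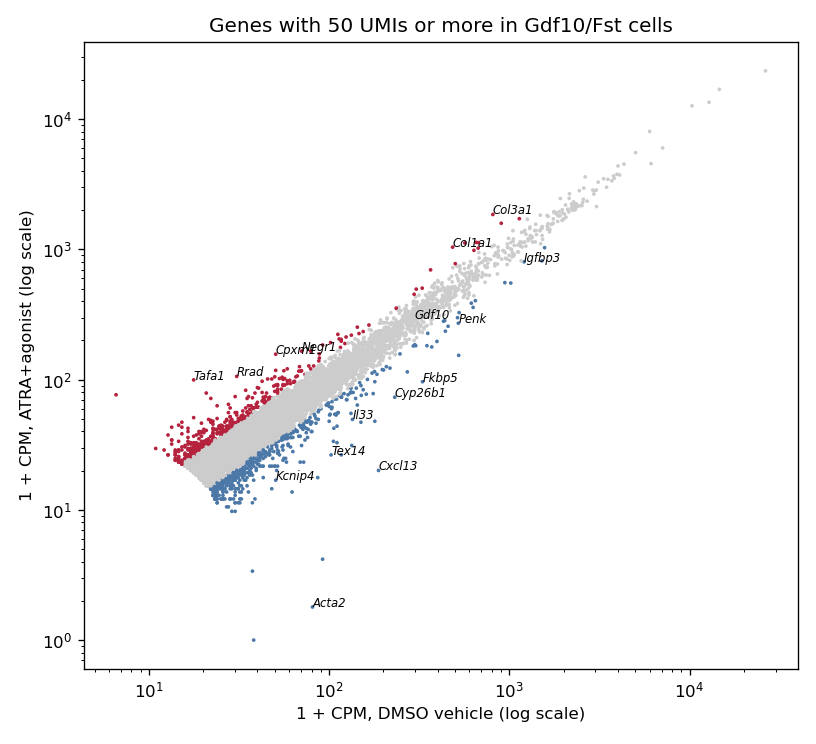
Each point is 1 of 7133 genes with 50 UMIs or more in Gdf10/Fst cells, with 1 plus CPM after DMSO vehicle on the horizontal and after ATRA+agonist on the vertical axis, both on log scales; red genes are at least 1.5-fold higher and blue genes at least 1.5-fold lower. Col3a1 and Col1a1 lie above the cloud at high levels, and Fkbp5, Cyp26b1 and Cxcl13 below it.

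The 10 genes furthest higher after ATRA+agonist were led by genes that a few cells carried. Tafa1, a secreted chemokine-like protein, was at 98.6 and 16.7 CPM, a log2 ratio of 2.56 (1.95 to 3.22), but 68 of its 124 treated UMIs lay in the deepest cell. Zfp804b had 98 and 32 UMIs in 9 and 5 cells, Rrad, a small GTPase, 132 and 48 UMIs in 28 and 29 cells, and Plcxd3 89 and 34 UMIs in 16 and 18 cells. Tmem158 had 28 of 78 treated UMIs in the deepest cell, and its log2 ratio went from 1.44 to 0.92 without the top cells. Cpxm1, a carboxypeptidase-like matrix protein, was more widely spread, at 156 and 49.5 CPM in 63 and 48 cells, with a log2 ratio of 1.65 (1.27 to 2.05). Negr1, an adhesion protein, was at 165 and 69.3 CPM (1.25, 0.91 to 1.59) in 59 and 46 cells. Gria3, a glutamate receptor subunit, was at 63.6 and 26.6 CPM in 43 and 30 cells. Prlr, the prolactin receptor, was at 73.1 and 29.1 CPM in only 20 and 24 cells. Its log2 ratio went from 1.33 to 0.81 with doublets removed. Ecrg4 was at 81.9 and 33.4 CPM in 25 and 20 cells, with 22 of its 103 treated UMIs in 1 cell.

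The TGF-β and IGF lists are given by their counts, beside 5.34% of all genes higher and 6.27% lower. Of 9 TGF-β superfamily ligands measured, Tgfb1 was higher (47 and 23 UMIs, log2 ratio 1.39, 0.64 to 2.18) and Inhba lower (12 and 42 UMIs, -1.45, -2.51 to -0.49), and none of 11 receptors was past 1.5-fold. Of 13 inhibitors Htra1 was higher and Cd109 lower. Of 12 Smad target genes, Id2 and Tgif1 were higher and Ccn2 lower. Of 15 IGF pathway genes, Irs1, the insulin receptor substrate, was higher at 184 and 91.0 CPM (1.01, 0.71 to 1.32), as was Htra1, and Igfbp3 and Pappa2 were lower, the latter with a log2 ratio of -1.12 that was -0.64 without the top cells. Igf1 was at 792 and 699 CPM, under 1.5-fold. Of 11 neurotrophic and guidance genes, Gfra1 was higher and Gfra2, Penk, Sema3d and Slit2 lower, and the intervals of Gfra2 and Sema3d included 0. Igfbp3 and Penk are rule markers that chose the cells in each library, so their place in these counts describes the rule.

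Of 10 complement genes, 1 was past 1.5-fold higher and 2 lower, beside 5.34% and 6.27% of all genes. C3, the central complement component, was at 1030 and 1569 CPM (log2 ratio -0.61, -0.70 to -0.51) and C4b at 177 and 370 CPM (-1.06, -1.29 to -0.84), while C7 was higher with 51 of its 127 treated UMIs in 1 cell and a log2 ratio of 0.42 without the top cells. The other 7 of 10 complement genes were under 1.5-fold. Of 13 contractile and fibrogenic genes 5 were lower, but for Acta2, Tagln and Myl9 this rested on the 1 DMSO vehicle cell described above. Ccn2 was at 111 and 172 CPM and Lox at 99.4 and 162 CPM. Postn and Col1a1 of that list were higher.

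Of 33 interferon-response genes measured, 7 were past 1.5-fold higher, beside 5.34% of all genes. Ifit3 (96.2 and 41.5 CPM), Rsad2, Oasl2, Ifi35, Irf7, Usp18 and Tap1 were higher and Cxcl10 and Irgm1 lower. The intervals of Irf7, Usp18 and Tap1 included 0. The list had a median log2 ratio of 0.32 against -0.02 in Pi16/Sema3c and -0.19 in Cxcl14/Mme cells. In Gdf10/Fst cells this median was 0.0013 with cells thinned to 2000 UMIs, 0.046 with equally weighted leading-marker groups and 0.12 with doublets removed. The count of higher genes was 4 in place of 7 with doublets removed and also with equally weighted leading-marker groups. It was 2 at 2-fold. In Fst-led cells alone it rose to 13, with a median log2 ratio of 0.38. In Rsad2 the direction turned without the hemoglobin filter.

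The other lists are given by their counts, beside 5.34% of all genes higher and 6.27% lower. None of 74 nuclear-encoded oxidative phosphorylation genes was past 1.5-fold, with a median log2 ratio of 0.10, and of 22 fatty acid oxidation genes Crot and Decr1 were higher with intervals that include 0. Of 16 adipogenic genes, Cebpa was higher and Cebpb and Cebpd lower. Of 15 clock genes, Npas2 and Cry1 were higher and Hlf and Per1 lower, and the intervals of Cry1 and Per1 included 0. Of 12 Wnt genes, Sfrp2 was higher and Sfrp4 and Wnt9a lower, of 18 growth factors Angptl2 was higher and Hbegf lower, and of 8 cell cycle genes Trp53 was higher and Cdkn1a, Cdkn1c and Ccnd3 lower. Of 30 immediate early and heat shock genes, Fosb and Klf6 were higher and Nr4a2 lower, and the list, known to respond to tissue digestion, had a median of 0.01.

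**Figure D5:**
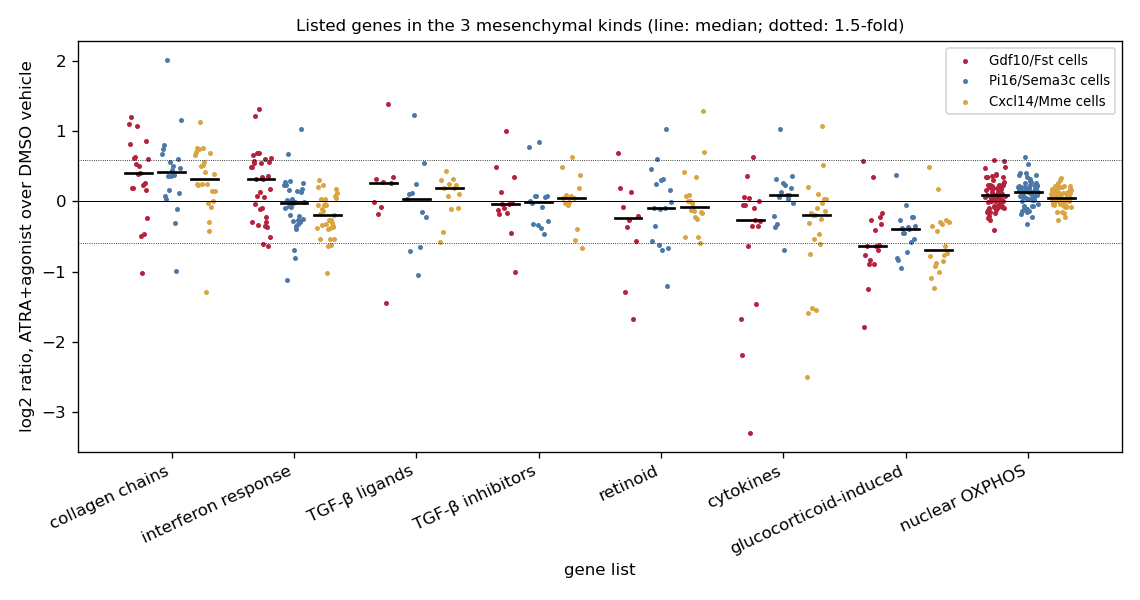
Each point is 1 gene of a list with 50 UMIs or more in the kind of cell its color gives, and the vertical axis is its log2 ratio of ATRA+agonist over DMSO vehicle; black lines are medians and dotted lines mark 1.5-fold. In Gdf10/Fst cells the median is 0.41 for collagen chains, -0.64 for glucocorticoid-induced genes and 0.10 for nuclear OXPHOS genes.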

How the data were processed

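The authors deposited UMI counts per gene and barcode, made with Cell Ranger 7.2.0 on mm10 from a 10x Genomics 3′ kit. The annotation release was not given in the sources used here. Gene positions came from GENCODE M21 (GRCm38) by gene identifier. Cells had 300 to 5000 genes, below 20% mitochondrial and below 0.25% Hbb UMIs, as in the methods. Doublets stayed in, and an alternative left out the 7.5% highest doublet scores per library.

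UMIs were summed per kind and library and scaled to 1000000 (CPM). Intervals were exact (Clopper-Pearson for shares, Poisson for levels, conditional binomial for ratios of counts) or, for ratios of shares, on the log scale. They cover counting error only, and a count of 0 allows up to 3 counts. Genes needed 50 UMIs between libraries (1.5-fold) and 100 between kinds (2-fold, 5 CPM added). No test was possible with 1 library per group. The functions were tested on simulated data, with Python 3.11.15, numpy 2.4.6 and scipy 1.17.1.

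Named genes were the rule genes, Pdgfra and Dcn; per direction, the 10 largest log2 ratios between libraries among genes with 100 UMIs and a CPM at least that outside the gate, without mitochondrial, ribosomal protein and hemoglobin genes; per direction, the 10 genes whose smallest difference from the other kinds was largest; 5 per leading marker; and listed genes past the fold or defining a list. Other genes were named after their values were seen. The members and the gene lists were chosen with earlier results of these data known. A few genes of the lists are not reported here. Alternatives changed the marker limit and margin, cell filters, doublets, depth, scaling, minimum of UMIs and fold.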

Additional observations from a re-analysis of the deposited data

Results flagged for a closer look

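Only the genes furthest higher or lower and the members of some lists, at most 95 genes, were searched for opposite directions. In 9 of them the Gdf10/Fst cells were past 1.5-fold in one direction and another kind past 1.5-fold in the opposite one. The rest of the 7133 genes measured were not searched, so no share over all genes is given. The difference between the kinds was not tested, and each group is 1 library. Postn, a matrix protein, had a log2 ratio of 1.07 in Gdf10/Fst cells, -1.55 in Pi16/Sema3c cells (146 and 303 UMIs) and -1.74 in Cxcl14/Mme cells (152 and 512 UMIs). Its 146 and 89 UMIs in Gdf10/Fst cells came from 12 and 9 cells, and in Fst-led cells alone its log2 ratio was -1.74.

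Against Pi16/Sema3c cells, Myl9 was at -1.80 and 0.98, with 54 of its 76 DMSO vehicle UMIs in 1 Gdf10/Fst cell. Sema3d was at -0.64 and 0.88, and Tgif1 at 0.88 and -0.69. Against Cxcl14/Mme cells, C7 was at 0.96 and -0.91, with 51 of 127 treated UMIs in 1 Gdf10/Fst cell. Plcxd3 was at 1.75 and -0.73 and Rrad at 1.82 and -0.73. Sfrp4 was at -0.89 and 0.87, with 69 of 248 DMSO vehicle UMIs in 1 Gdf10/Fst cell. Tap1 was at 0.61 and -0.62, and its interval in Gdf10/Fst cells included 0.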

How the results depend on the processing

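The ratio of the share of Gdf10/Fst cells remained below 1 under all 10 alternatives, from 0.685 to 0.740 of gate cells and from 0.576 to 0.670 of filtered cells. The ratios for Fst-led and Igfbp3-led cells stayed above and below 1 under all 4 alternatives each, of which thinning was chosen after seeing the data. The count of genes past 1.5-fold depended on the limits: from 381 higher and 447 lower it went to 1334 and 1533 with a minimum of 10 UMIs, to 167 and 201 with 100 UMIs, and to 72 and 112 at 2-fold. The balance turned to 558 and 358 without the hemoglobin filter and to 346 and 274 of 3792 in Fst-led cells alone. At 2-fold, 2 glucocorticoid-induced genes were lower and 3 collagen chains higher. Thinning to 2000 UMIs left 47 genes higher than in both other kinds, of 6298 measured.

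Of 95 single-gene log2 ratios, 11 past 1.5-fold changed sign under some alternative, as did that of Gdf10 (-0.02), at 0.14 without the hemoglobin filter and 0.046 with means of log-normalized cells. In Fst-led cells alone (chosen after seeing the data, as were equal weights and leaving out top cells) those of the 11 were Cxcl10 (0.81), Myl9 (0.032), Postn (-1.74), Rdh10 (0.52), Sfrp4 (0.40) and Tmem158 (-0.20). With means of log-normalized cells, a compressed scale, C7 was at -0.043 and Sfrp4 at 0.065. Thinned cells gave Gfra1 at -0.61 and Mmp19 at -0.29, Rsad2 was at -0.034 without the hemoglobin filter, and Igfbp3 at 0.26 with equal weights. The cause was not tested. None of the 60 values of the 20 genes that set the kinds apart changed sign, but that of Zfp804b fell under 2-fold with doublets removed (0.81). No paired analysis was possible because each group is 1 library. Depth limits genes under 50 UMIs, such as Rarb, Rxra and Stra6.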
